A study of Mus musculus with 908 samples.

Results

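The mitosis genes described here are a list of 40 genes that act in mitosis, chosen by symbol, and all 40 were found among the 46517 gene rows of the deposited tables. Their levels were measured cell by cell in squamous cell carcinomas of mouse skin, from cells sorted into wells and sequenced by the full-length Smart-seq2 method. Tumour cells taken after adoptive cell transfer, a therapy that infuses immune cells, were set against cells taken before it. TPM is a length-normalised share of a library's transcripts, and a gene with 1 TPM or more is called detected. Of 908 libraries, 696 had 2000 or more detected genes, and those on 7 plates were used.

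Cells after transfer (87 of 96 libraries on plate OT2 and 90 of 96 on plate OT_B) were sorted as mCherry+ from tumours of the strain TRE-OVA;TRE-HrasG12V:PGK-rtTA3P2AmCherry, in which rtTA drives an ovalbumin antigen and the Hras G12V oncogene and mCherry marks the cells that carry rtTA. The other 4 gates came from untreated tumours of the strain TRE-HrasG12V;SBE-mCherry-PGK-rtTA3, in which mCherry instead reports a SMAD-binding element and so TGF-beta signalling. Reporter-positive cells (73 of 86 libraries on plate CSC1 and 32 of 72 on plate CSC2) were integrin α6+ and carried mCherry, CD34 and CD44. CD44+ reporter-negative cells (15 of 24) were α6+ and CD44+ without mCherry or CD34. CD44-negative α6+ cells (91 of 96) were α6+ without the other 3 markers, and α6-negative cells (43 of 84) lacked all 4. CD45, CD117, CD140a and CD31 were absent by sort in every gate, all mice were P60 to P90 with sex given as mixed, and all tumours carried the G12V oncogene. Antigen, strain, sorting gate and treatment therefore changed together between the cells after transfer and each earlier gate, and their parts cannot be told apart. No animal or culture is named, so each gate is 1 sample and no difference below carries a test. Intervals on shares are exact Clopper-Pearson 95% intervals and cover counting error only.

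Some libraries went against their labels. Whole-profile correlation matched 71 of 72 kept libraries of plate OT_C and 40 of 45 of plate OT_D, both labelled after transfer, to libraries labelled before transfer. From the other side, 72 of 73 reporter-positive libraries on plate CSC1, 25 of 32 on plate CSC2 and 15 of 15 CD44+ reporter-negative libraries had such a match. OT_C and OT_D were left out, and without the matched libraries 8 reporter-positive and 0 CD44+ reporter-negative cells would remain. Plates OT1 and OT_A were left out because their wells repeat those of OT_B and OT2. Within the libraries used, 8 pairs from different wells of a plate passed the limit used to find repeats, a Pearson r of 0.88. The 5 pairs on CSC2 passed it narrowly, with an r of 0.881 to 0.886. Same-well repeats after transfer had a median r of 0.934. Every cell used after transfer, in the reporter-positive gate and in the CD44-negative α6+ gate was led by keratinocyte markers. Among CD44+ reporter-negative cells, keratinocyte markers led in 12, pericyte or muscle markers in 2 and fibroblast markers in 1. The α6-negative gate held 26 keratinocyte-led, 15 fibroblast-led and 2 pericyte- or muscle-led cells. Of the α6-negative fibroblast markers, 11 of 11 were detected in at least 1 cell, with a summed TPM of 0 to 23243, against 0 to 968 in the CD44-negative α6+ gate.

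Entry into mitosis is driven by the kinase Cdk1 bound to cyclin B, with Cks2 as a small adaptor subunit and Cdc25c as an activating phosphatase. Plk1 and the Aurora kinases then direct spindle assembly, and the spindle checkpoint holds the cell in metaphase until kinetochores are attached. The anaphase-promoting complex, with its activator Cdc20 and its ubiquitin-conjugating enzyme Ube2c, ends mitosis by marking cyclin B and securin for destruction. Most of these genes are transcribed late in the cell cycle, through promoters that often carry a CHR element (letters TTTGAA) and CCAAT boxes. In skin, cell division is normally a property of the basal layer, whose cells carry integrin α6.

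RefSeq promoter windows, 250 bases before to 50 after a start site (GRCm38.p6), were on hand for 33 of the 40 genes. Ccna2, Cdc25c, Foxm1, Aurkb, Incenp, Tpx2 and Kif20a were not among them. Shares are of genes, and a gene was counted if any of its windows matched. The letters TTTGAA, on either strand, occurred in 24 of the 33 genes (72.7%), against 20.2% of 27025 genes. They began within 50 bases of the start site in 69.7% of the mitosis genes and 5.72% of all genes. CCAAT on either strand was in 78.8% of the mitosis genes and 41.1% of all genes, and both motifs together in 66.7% and 7.97%. Matches of the 2 motifs overlapped in 1 window of the mitosis genes. A match is a description of these letters and not a bound site. The 6 windows below show the promoters of 4 genes whose transcripts were mostly held by mitotic cells (Ccnb2, Cdk1, Plk1 and Cdc20) and of 2 that were also detected in most other cells (Bub3 and Pttg1). Capitals mark TTTGAA and CCAAT on either strand, and each window reads 5′ to 3′ on the gene's strand.
Ccnb2: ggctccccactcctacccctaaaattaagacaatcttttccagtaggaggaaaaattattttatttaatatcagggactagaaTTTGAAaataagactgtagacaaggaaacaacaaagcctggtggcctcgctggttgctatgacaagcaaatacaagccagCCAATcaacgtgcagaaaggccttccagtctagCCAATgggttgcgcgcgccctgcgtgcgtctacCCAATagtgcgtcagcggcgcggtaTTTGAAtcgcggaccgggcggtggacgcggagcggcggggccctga
Cdk1: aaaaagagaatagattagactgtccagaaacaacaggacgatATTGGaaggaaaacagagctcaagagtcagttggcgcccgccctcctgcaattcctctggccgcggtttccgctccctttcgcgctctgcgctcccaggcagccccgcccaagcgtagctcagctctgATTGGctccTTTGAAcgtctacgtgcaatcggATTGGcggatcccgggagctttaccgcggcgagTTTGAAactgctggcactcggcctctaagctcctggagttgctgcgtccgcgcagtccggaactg
Plk1: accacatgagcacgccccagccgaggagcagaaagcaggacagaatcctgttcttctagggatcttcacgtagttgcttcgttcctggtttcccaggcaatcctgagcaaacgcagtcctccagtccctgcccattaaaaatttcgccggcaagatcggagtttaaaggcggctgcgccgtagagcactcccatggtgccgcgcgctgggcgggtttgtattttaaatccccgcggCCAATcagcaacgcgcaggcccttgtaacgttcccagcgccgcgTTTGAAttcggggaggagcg
Cdc20: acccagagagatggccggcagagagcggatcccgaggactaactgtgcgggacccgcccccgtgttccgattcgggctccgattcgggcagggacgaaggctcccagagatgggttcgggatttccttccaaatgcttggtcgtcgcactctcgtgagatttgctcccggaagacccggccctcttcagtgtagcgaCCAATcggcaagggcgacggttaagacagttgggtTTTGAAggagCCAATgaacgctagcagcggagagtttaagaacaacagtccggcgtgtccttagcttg
Bub3: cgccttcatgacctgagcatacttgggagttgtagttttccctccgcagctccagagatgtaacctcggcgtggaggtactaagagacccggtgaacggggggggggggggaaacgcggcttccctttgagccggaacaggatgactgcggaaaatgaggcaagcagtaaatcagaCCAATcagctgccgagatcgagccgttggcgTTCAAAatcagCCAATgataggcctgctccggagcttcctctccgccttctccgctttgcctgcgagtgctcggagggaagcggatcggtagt
Pttg1: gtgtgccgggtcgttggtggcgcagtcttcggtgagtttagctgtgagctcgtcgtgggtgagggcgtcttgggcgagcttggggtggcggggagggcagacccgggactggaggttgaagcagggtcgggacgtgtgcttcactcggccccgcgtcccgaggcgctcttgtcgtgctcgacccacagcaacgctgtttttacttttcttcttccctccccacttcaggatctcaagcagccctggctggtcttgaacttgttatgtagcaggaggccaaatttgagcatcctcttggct

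Ccnb2 (cyclin B2) lies at chr9:70421505-70421804 on the minus strand, with 2 TTTGAA and 3 CCAAT matches. The window of Cdk1, at chr10:69352863-69353162 on the minus strand, also has 2 and 3. Plk1 (chr7:122159185-122159484, plus strand) has 1 of each, and Cdc20 (chr4:118437294-118437593, minus strand) has 1 TTTGAA 18 bases before the start site between 2 CCAAT matches. Bub3, with 2 RefSeq windows of which the first is shown (chr7:131560120-131560419, plus strand), holds 1 TTTGAA and 2 CCAAT matches although its transcript was widely detected. Pttg1 (chr11:43425932-43426231, minus strand) has neither. The windows of Birc5, Nusap1, Nuf2 and Mad2l1, not shown, also have neither, yet mitotic cells held at least 75% of the TPM of each. Cks2, also detected in most other cells, has 0 TTTGAA and 4 CCAAT matches. The 6 windows shown therefore do not tie the motifs to how closely a gene kept to mitotic cells. By gene locus the 40 members spread over 16 chromosomes, with the highest number, 7, on chromosome 2.

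The number of mitosis genes detected per cell separated most cells into a low and a high class. Fewer than 10 of the 40 genes were detected in 69.8% of all cells used, and at least 30 in 15.5% (67 cells). A cell with at least 20 was counted as mitotic, which made 88 mitotic cells, 20.4% of all (interval 16.7% to 24.5%). This is a range of a count and not a cell type, and 24 cells lay near the limit, with 15 to 24 genes. In every gate except the α6-negative one, whose highest cell had 35, at least 1 cell had all 40 genes.

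**Figure D1:**
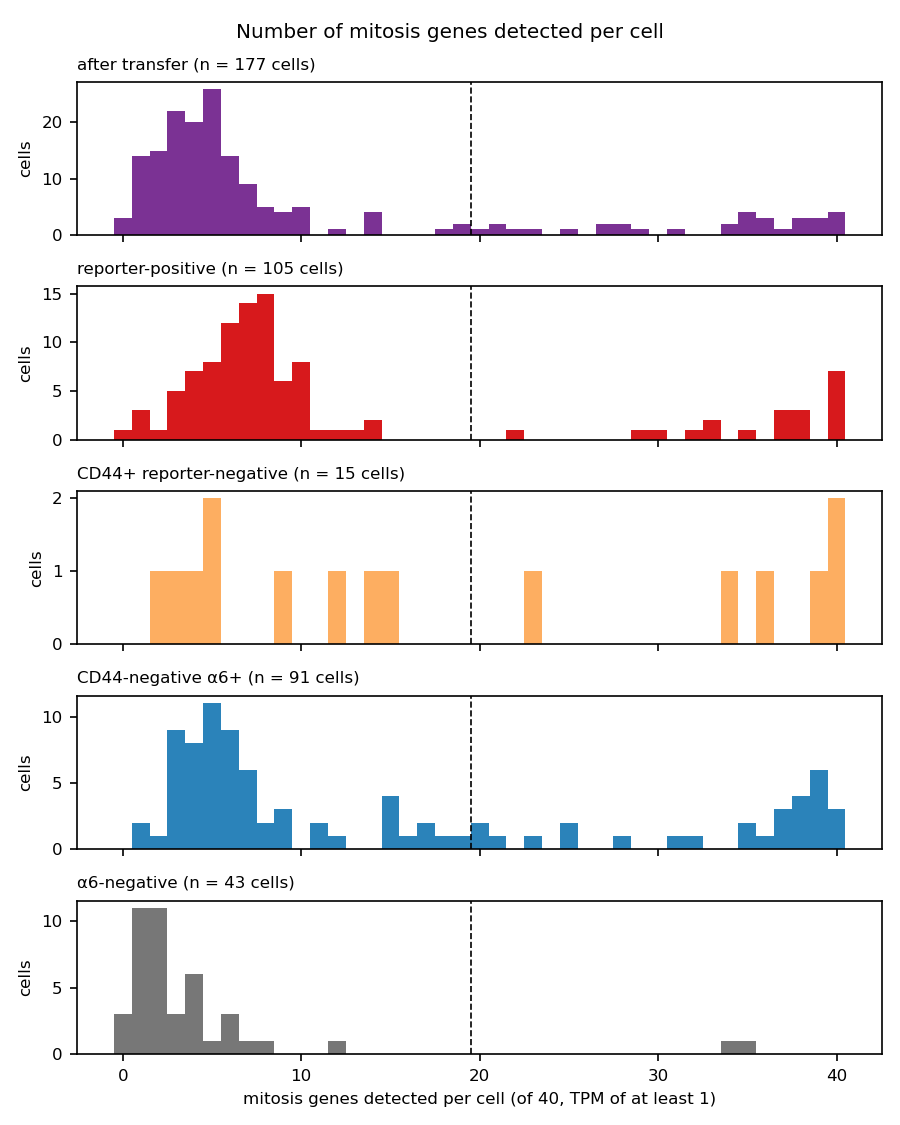
Histograms of the number of mitosis genes detected per cell (x axis, out of 40, with 1 TPM or more) against the number of cells (y axis) in the 5 gates, with a dashed line at the limit of 20 genes. Most of the cells after transfer sit below 10 genes, with a separate group of 21 at 30 or more, while the 43 α6-negative cells include only 2 to the right of the line.

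After transfer, 32 cells were mitotic, 18.1% (interval 12.7% to 24.6%). In the earlier gates there were 20 mitotic reporter-positive cells (19.05%, 12.04% to 27.9%), 6 of 15 CD44+ reporter-negative cells (40%, 16.3% to 67.7%), 28 of 91 CD44-negative α6+ cells (30.8%, 21.5% to 41.3%) and 2 of 43 α6-negative cells (4.65%, 0.568% to 15.8%). The share after transfer and the reporter-positive share were close, while the CD44-negative α6+ gate was higher than both, with intervals that overlap. Only the α6-negative interval lay wholly below that of the CD44-negative α6+ gate and, narrowly, below that of the CD44+ reporter-negative gate. By plate, the share was 17.2% on OT2 (15 of 87) and 18.9% on OT_B (17 of 90) after transfer, and 16.4% on CSC1 (12 of 73) and 25% on CSC2 (8 of 32) among reporter-positive cells. The plates of a gate thus differed by less than their counting intervals. Of the 8 reporter-positive cells with no match labelled after transfer, 1 was mitotic (12.5%).

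**Figure D2:**
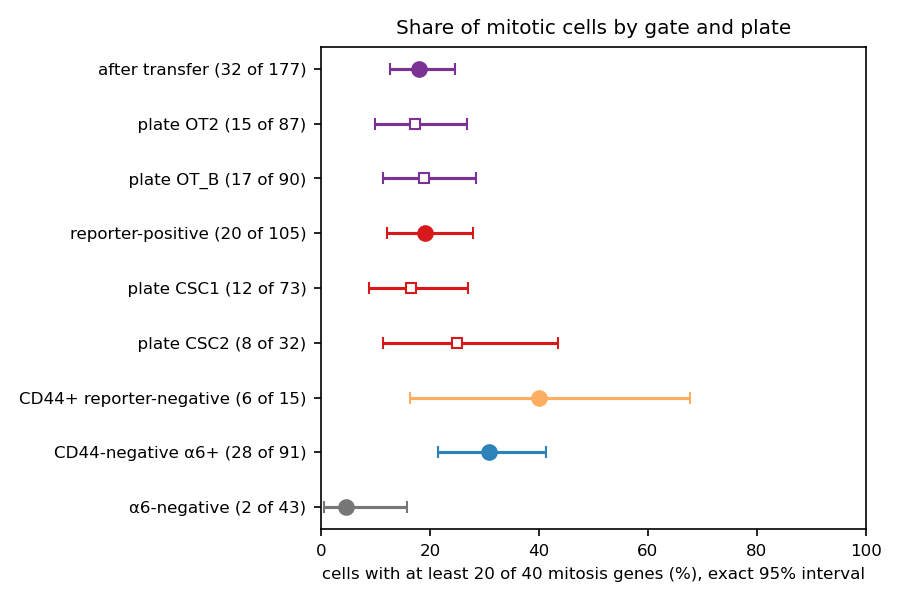
Share of cells with at least 20 of the 40 mitosis genes (x axis, percent) for each gate (filled circles) and for the plates of the gates with 2 plates (open squares), with exact 95% intervals as bars and the counts in the row names. The CD44+ reporter-negative bar, from 15 cells, is the widest, and the α6-negative share of 4.65% is the lowest.

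Cell type and gene number moved with these shares. All 26 keratinocyte-led α6-negative cells were below the limit, the highest with 8 mitosis genes, which allows a share of up to 13.2% by the exact interval. Both mitotic α6-negative cells were fibroblast-led, had 34 and 35 mitosis genes, and matched each other at a Pearson r of 0.918 although they came from different wells, and whether they are separate cells was not tested. Counted as 1 cell, they made 1 of 42 α6-negative cells, 2.38% (interval 0.0603% to 12.6%). Among the CD44+ reporter-negative cells, 4 of 12 keratinocyte-led cells were mitotic (33.3%) and 2 of 2 led by pericyte or muscle markers. In libraries of 6000 to 8000 genes, the share was 20.2% after transfer, 18.97% in reporter-positive cells, 50% of 10 CD44+ reporter-negative cells, 31.9% in CD44-negative α6+ cells and 0 of 15 α6-negative cells. In libraries of under 6000 genes, 2 of 44 cells after transfer were mitotic and 0 in the other gates. The part of gene number in these shares was not tested.

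Sex-linked transcripts also differed between plates. Y-linked transcripts without Xist were found in 96.6% of cells after transfer, in 94.3% of reporter-positive cells and in 90.7% of α6-negative cells, while 12 of 15 CD44+ reporter-negative cells had Xist and no Y-linked transcript. The CD44-negative α6+ gate held both kinds. There, 15 of 45 cells with Y-linked transcripts (33.3%) and 13 of 42 cells with Xist (30.95%) were mitotic. Sex and gate cannot be told apart between the reporter-positive and the CD44+ reporter-negative cells.

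Repeat libraries of the same well gave a view of how far the count of genes moves between libraries. Only wells whose 2 libraries matched by whole-profile correlation were taken, so close counts are partly a result of that choice. Of 56 matches between OT1 and OT_B and 67 between OT2 and OT_A, 35 and 45 were in the same well. For 80 wells with a library on 2 plates after transfer (OT1 and OT_B, or OT2 and OT_A), the number of mitosis genes differed by a median of 1 and at most 6. Both libraries were mitotic in 17 wells and neither in 61. In 2 wells the libraries fell on either side of the limit, with 19 and 20 genes in one well and 19 and 24 in the other. Where a gene was detected in either library of a mitotic pair, it was detected in both in 91.3% of cases, and in 64.5% of cases in the other pairs. The median absolute log2 ratio of a member's TPM between repeats was 0.49.

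**Figure D3:**
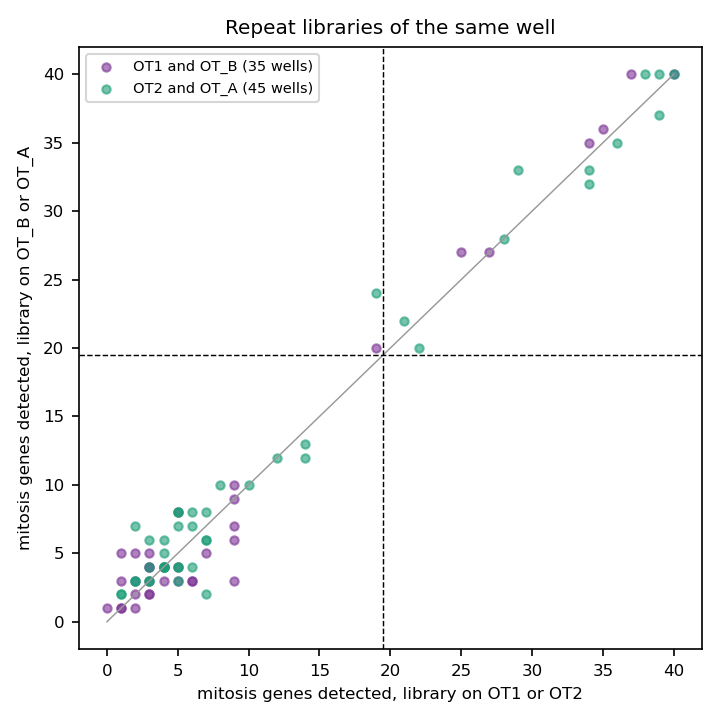
Number of mitosis genes detected in the library on OT1 or OT2 (x axis) and in the repeat library of the same well on OT_B or OT_A (y axis), for 35 and 45 wells, with dashed lines at 20 genes and a grey line of equality. Only wells whose 2 libraries matched by whole-profile correlation are drawn. Points lie close to the line over the whole range, and 2 wells fall on either side of the limit of 20.

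The genes were not alike in how closely they kept to mitotic cells. Because the members themselves define a mitotic cell, this is a description of the list. At least 75% of the summed TPM of 37 members lay in mitotic cells, which were 20.4% of cells, and each of 37 members was detected in under 30% of the other cells. The 3 exceptions on both counts were Cks2, Bub3 and Pttg1. Bub3, a checkpoint protein that binds kinetochores, was detected in 84.3% of the other cells and had 38.1% of its TPM in mitotic cells. Cks2 was detected in 54.5% of the others, with 67.3% of its TPM in mitotic cells. Pttg1 encodes securin, the inhibitor of separase, and was detected in 54.2% of the others, with 21.9% of its TPM in mitotic cells. Within the CD44-negative α6+ gate, the Spearman correlation of Pttg1 with the number of the other members detected was 0.01 over 91 cells, against 0.53 for Bub3, 0.72 for Plk1 and 0.82 for Ccnb1, over cells that share a plate. Pttg1 therefore did not follow the rest of the list across the cells of this gate. In the other gates its correlation was 0.22 after transfer, 0.26 in reporter-positive and 0.24 in α6-negative cells. The values of Bub3 there were 0.37, 0.42 and −0.03.

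**Figure D4:**
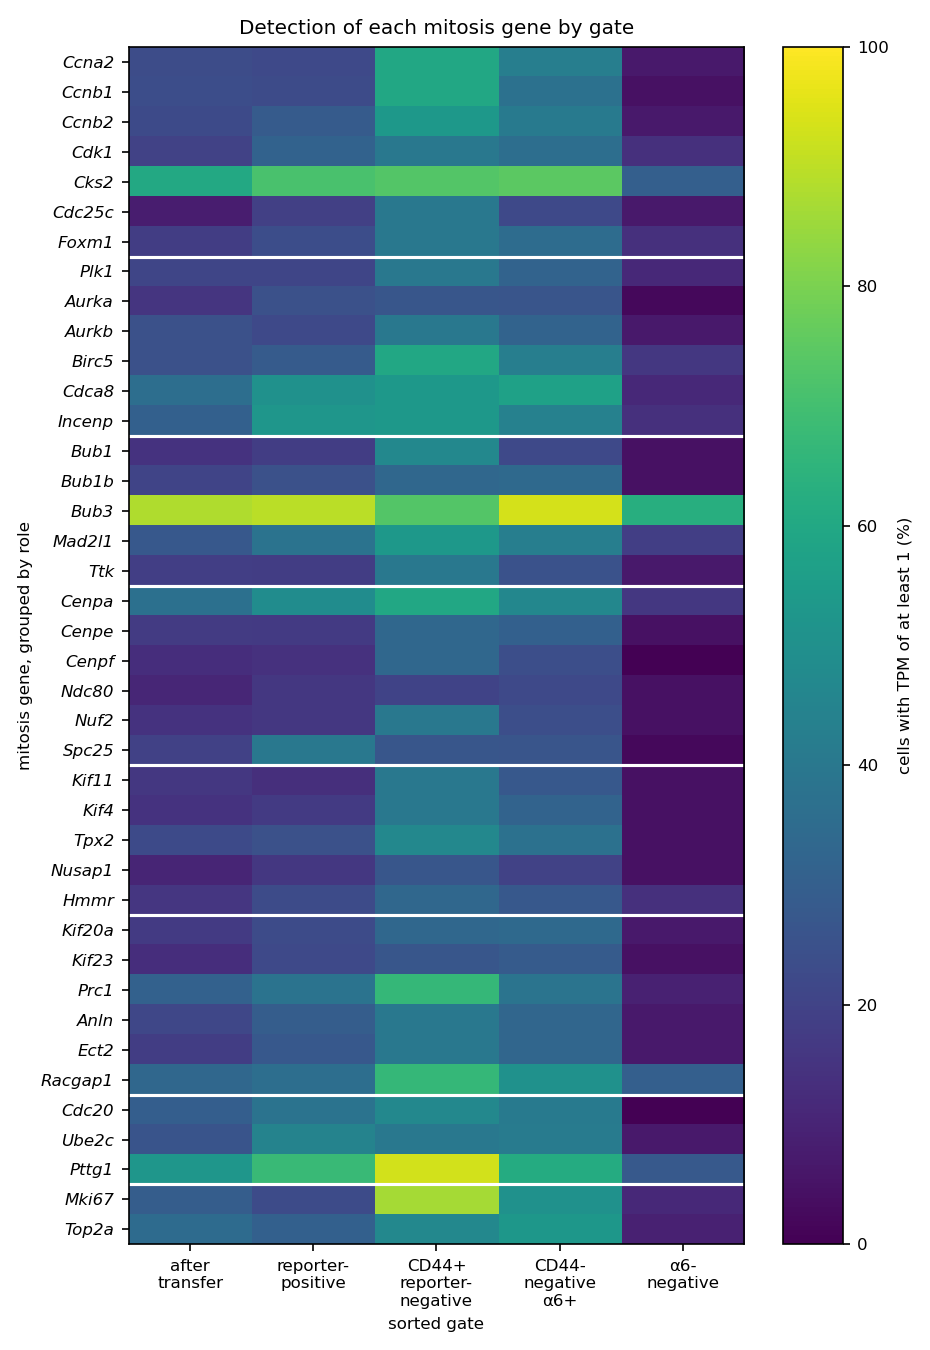
Percent of cells in which each of the 40 mitosis genes was detected (colour scale, TPM of at least 1) in the 5 gates (columns), with genes in rows grouped by role between white lines. Bub3, Cks2 and Pttg1 stand out as bright rows, the CD44+ reporter-negative column is the brightest for 30 genes, and the α6-negative column is the darkest for all 40.

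Among the cyclins, Cdk1 and their activators, Ccnb1 (cyclin B1) was detected in 42 cells after transfer (23.7%), in 24 reporter-positive cells (22.9%), in 9 of 15 CD44+ reporter-negative cells (60%), in 34 of 91 CD44-negative α6+ cells (37.4%) and in 2 of 43 α6-negative cells (4.65%). Its median was 0 in each gate except CD44+ reporter-negative, at 9.21 TPM, and its highest values were 166.2, 151.2, 148.9, 202.2 and 50.1 TPM in the same order of gates. Ranges overlapped between all gates, and outside the CD44+ reporter-negative gate a minority of cells carried the level. Cdk1 averaged 14.4 TPM after transfer, 19.9 in reporter-positive, 71 in CD44+ reporter-negative, 32.5 in CD44-negative α6+ and 3.76 in α6-negative cells, from medians of 0 in each and highest values of 347.98, 277.4, 396.8, 242.6 and 64.2 TPM. Cks2, detected in 60.5%, 71.4%, 73.3%, 74.7% and 30.2% of cells, had medians of 4.76, 10.6, 14.3, 11.3 and 0 TPM. The other 4 genes of this role, Ccna2, Ccnb2, Cdc25c and the transcription factor Foxm1, which drives many late cell cycle genes, were detected in 7.91% to 23.2% of cells after transfer, in 19.05% to 28.6% of reporter-positive cells and in 21.98% to 42.9% of CD44-negative α6+ cells.

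Plk1, the polo-like kinase of spindle assembly, was detected in 20.9% of cells after transfer, 20.95% of reporter-positive, 40% of CD44+ reporter-negative, 31.9% of CD44-negative α6+ and 11.6% of α6-negative cells, with highest values of 116.8, 151.8, 188.1, 115.2 and 19.4 TPM and medians of 0. Aurkb, the kinase of the chromosomal passenger complex, was found in 24.9%, 21.9%, 40%, 31.9% and 6.98% of cells, with highest values of 66.2, 82.5, 92.9, 73.5 and 27.1 TPM. Survivin (Birc5), a subunit of the same complex, was found in 24.9%, 28.6%, 60%, 42.9% and 16.3%, with highest values of 120.4, 87.6, 110.96, 103.7 and 48.2 TPM. All 3 genes had their lowest share in the α6-negative gate and their highest in the CD44+ reporter-negative gate. The passenger subunits Cdca8 (borealin) and Incenp were the most widely detected of this role in reporter-positive cells, at 50.5% and 52.4%, and Aurka, the centrosomal Aurora kinase, was found in 15.3% of cells after transfer and in 2.33% of α6-negative cells.

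In the spindle checkpoint, Bub3 had medians of 11.5 TPM after transfer, 18.9 in reporter-positive, 13.8 in CD44+ reporter-negative, 16.1 in CD44-negative α6+ and 6.64 in α6-negative cells, with highest values of 69.7, 96.3, 114.5, 111.4 and 109.6 TPM. It was the only one of the 5 checkpoint genes detected in most cells of every gate. Bub1 and Bub1b (checkpoint kinase and BubR1), Mad2l1 (Mad2) and Ttk (Mps1 kinase) were detected in 14.7% to 27.7% of cells after transfer and in 21.98% to 42.9% of CD44-negative α6+ cells. Cenpf, a large kinetochore protein, was found in 12.99% of cells after transfer, 14.3% of reporter-positive, 33.3% of CD44+ reporter-negative and 24.2% of CD44-negative α6+ cells, with highest values of 28.8, 27.9, 135.7 and 92.3 TPM, and in 0 of 43 α6-negative cells, which allows a share of up to 8.22% by the exact interval. Cenpa, the centromeric histone, was the most widely detected of the 6 kinetochore and centromere genes in all 5 gates.

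The median detection of the spindle genes and of the cytokinesis genes had the same order of gates, though single genes such as Kif23 did not. The 5 spindle genes (Kif11, Kif4, Tpx2, Nusap1 and Hmmr) had a median detection of 15.8% after transfer, 17.1% in reporter-positive, 40% in CD44+ reporter-negative, 27.5% in CD44-negative α6+ and 4.65% in α6-negative cells. The 6 cytokinesis genes (Kif20a, Kif23, Prc1, Anln, Ect2 and Racgap1) had 19.8%, 28.6%, 40%, 33.5% and 6.98%. Racgap1, a subunit of the centralspindlin complex, reached 33.3% after transfer and 50.5% of CD44-negative α6+ cells.

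Cdc20 was detected in 29.9% of cells after transfer, 38.1% of reporter-positive, 46.7% of CD44+ reporter-negative and 40.7% of CD44-negative α6+ cells, with highest values of 148.9, 99.8, 144.1 and 189.2 TPM, and was listed at 0 in all 43 α6-negative cells, the 2 mitotic ones included. Ube2c was detected in 25.99%, 44.8%, 40%, 41.8% and 6.98% of cells from after transfer to α6-negative, with highest values of 501.8, 341.8, 489.2, 370.4 and 151.3 TPM. Of the 2 chromosome genes, Mki67, which coats mitotic chromosomes and is a common proliferation marker, was found in 29.4%, 22.9%, 86.7%, 50.5% and 11.6% of cells, with medians of 0, 0, 4.61, 1.06 and 0 TPM and highest values of 54.5, 34.02, 79.6, 72.6 and 43.8 TPM. Top2a, the topoisomerase that untangles chromosomes, was found in 35.03%, 30.5%, 46.7%, 52.7% and 9.30%, with highest values of 108.6, 163.5, 139.4, 139.9 and 144.97 TPM. Mki67 was detected in 85 of 88 mitotic cells and in 16.04% of the others, so that its share of cells was above the mitotic share in every gate.

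Mean levels were compared as the log2 ratio of mean TPM + 1, with at least 2-fold counted as higher or lower. A gene was counted with a mean TPM of at least 0.5 over both gates, and all 40 members passed in all 6 comparisons. The comparisons share gates, so their values are not independent of each other. Summed over the members, the minority of mitotic cells held 79.1% of TPM after transfer, 79.2% in reporter-positive, 93.4% in CD44+ reporter-negative, 87.5% in CD44-negative α6+ and 56.03% in α6-negative cells. Pttg1 was an exception in every gate, and Bub3 after transfer and in reporter-positive and α6-negative cells, with under 50% of their TPM in mitotic cells, as had 8 further members in the α6-negative gate.

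**Figure D5:**
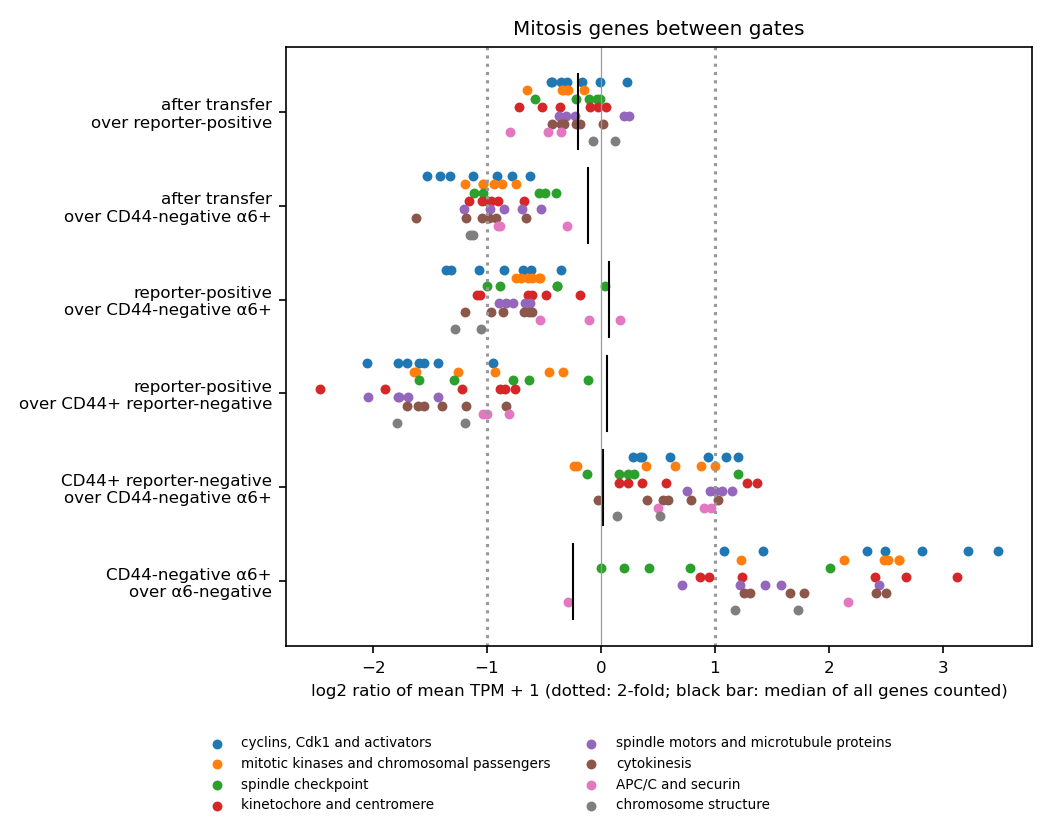
Log2 ratio of mean TPM + 1 (x axis) for each mitosis gene in 6 comparisons of gates (rows), coloured by role, with dotted lines at 2-fold and black bars at the median of all genes counted. Cdc20 is not drawn in the lowest row, since it was listed at 0 in α6-negative cells. The points lie on both sides of the bar in the top row, all or nearly all below it in the next 3 (Pttg1 is above it in the third), mostly above it in the fifth and nearly all above it in the last.

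Between cells after transfer and reporter-positive cells, 0 of the 40 mitosis genes were at least 2-fold higher and 0 at least 2-fold lower, where 2.95% and 7.82% of the 12567 genes counted were. The median over the members was −0.29 and over all genes −0.20. The lowest were Ube2c at −0.80 (mean 18.7 TPM after transfer and 33.3 TPM in reporter-positive cells), the kinetochore gene Spc25 at −0.72 (2.71 and 5.12 TPM) and Aurka at −0.65 (2.05 and 3.80 TPM). The highest were Kif4 at 0.24, Foxm1 at 0.22 and Kif11 at 0.20, with means of 1.13, 3.15 and 1.21 TPM after transfer and 0.80, 2.55 and 0.93 TPM in reporter-positive cells. Mki67 was at 0.12, Cenpf at 0.05, Top2a at −0.07, Birc5 at −0.14 and Ccnb1 at −0.16. Values for Plk1 (−0.29), Aurkb (−0.30), Cdc20 (−0.35), Cks2 (−0.43), Cdk1 (−0.44) and Bub3 (−0.58) were lower without reaching 2-fold. Without plate CSC1, 4 members were at least 2-fold lower, where 9.83% of all genes were. Against the 8 reporter-positive cells with no match labelled after transfer, 4 members were lower, where 11.2% of all genes were. In this setting 8 members were higher, but the share of all genes that were higher is not at hand to set beside them. The median was 0.44 over the members and 0.42 over all genes.

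Within mitotic cells the summed member TPM was lower after transfer, with a median of 700 (range 177.4 to 2808, 32 cells), against 1182 in reporter-positive cells (range 231.6 to 2439, 20 cells). It was 1426 in CD44+ reporter-negative cells (289.6 to 4347, 6 cells) and 1353 in CD44-negative α6+ cells (195.4 to 2820, 28 cells). These ranges overlapped almost wholly. Of the mitotic cells, 11 of 32 after transfer had 20 to 29 genes, against 2 of 20 in the reporter-positive gate. In CD44-negative α6+ cells it was 7 of 28, and in CD44+ reporter-negative cells 1 of 6. By plate after transfer, 8 of 15 mitotic cells on OT2 and 13 of 17 on OT_B had at least 30 genes. Ribosomal rows took a median of 71.6% and 76.4% of TPM on OT2 and OT_B, and 72.4% and 66.1% on CSC1 and CSC2. With TPM rescaled without those rows and spike-ins, the members' median between the 2 gates was −0.22 and that of all genes −0.07.

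Against CD44-negative α6+ cells, 18 of the 40 genes were at least 2-fold lower after transfer, where 4.18% of the 12417 genes counted were, and 0 were higher, where 3.62% were. All 40 values were below 0, with a median of −0.97 against −0.11 over all genes. Racgap1 was lowest at −1.62 (10.5 TPM after transfer, 34.3 TPM in CD44-negative α6+ cells), followed by Ccnb1 at −1.53 (8.18 and 25.4 TPM) and Ccnb2 at −1.41 (5.33 and 15.9 TPM). The values nearest 0 were those of Pttg1 (−0.30), Bub1 (−0.39) and Ttk (−0.49). By role, 4 of 7 cyclins and activators, 3 of 6 kinases and passengers, 2 of 5 checkpoint genes, 3 of 6 kinetochore genes, 1 of 5 spindle genes, 3 of 6 cytokinesis genes, 0 of 3 genes of the anaphase-promoting complex and securin and both chromosome genes passed. Mki67 (−1.15), Top2a (−1.12), Cdk1 (−1.12), Plk1 (−1.04) and Cenpf (−1.04) were among them, while Aurkb (−0.94), Ube2c (−0.90), Cdc20 (−0.88), Cks2 (−0.78), Birc5 (−0.75) and Bub3 (−0.54) were not. With all libraries as labelled, OT_C and OT_D included, 7 were at least 2-fold lower (2.21% of all genes), and with a pseudocount of 5 in place of 1, which shrinks every fold, 3 were (0.9503% of all genes).

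Reporter-positive cells were also below CD44-negative α6+ cells, with 8 genes at least 2-fold lower, where 4.41% of 12710 genes were, and 0 higher, where 9.17% were. The members' median was −0.67 and that of all genes 0.07. The 8 were Ccnb1 (−1.36), Ccna2 (−1.32), Mki67 (−1.28), Racgap1 (−1.19), Cenpf (−1.09), Ccnb2 (−1.07), Cenpa (−1.06) and Top2a (−1.05). Mki67 averaged 3.31 TPM in reporter-positive cells and 9.44 TPM in CD44-negative α6+ cells. At the other end, Pttg1 (0.16) and Bub3 (0.04) were above 0 and Ube2c was at −0.10, with means of 33.3 and 35.8 TPM. The count was 3 without plate CSC1, where 6.70% of all genes were lower, and 13 without plate CSC2, where 5.40% were, so the share of members was near that of all genes on CSC2 alone. With the 8 reporter-positive cells that had no match labelled after transfer it was 23, where 28.5% of all genes were lower and their median was −0.53.

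Against the 15 CD44+ reporter-negative cells, 28 of 40 genes were at least 2-fold lower in reporter-positive cells, where 12.5% of 13113 genes were, and 0 were higher, where 12.4% were. The median was −1.41 against 0.05 over all genes. Cenpf was lowest at −2.46 (1.52 TPM in reporter-positive, 12.9 TPM in CD44+ reporter-negative cells), then Foxm1 at −2.05 and the spindle motor Kif11 at −2.04. Bub3 (−0.12), Aurka (−0.34) and Cdca8 (−0.46) were nearest 0. Mki67 and Cdk1 were both at −1.79, Ccnb1 at −1.70, Aurkb at −1.64, Plk1 at −1.62, Birc5 at −1.26, Top2a at −1.19, Cdc20 at −1.03, Ube2c at −1.003 and Cks2 at −0.95. With the 12 keratinocyte-led cells alone, 12 of the 40 genes were at least 2-fold lower, where 9.24% of all genes were, and the median was −0.81, so the difference was smaller without the 3 cells led by other markers. These 2 gates also differed in sex-linked transcripts, which cannot be told apart from the gate.

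CD44+ reporter-negative cells in turn had 8 genes at least 2-fold higher than CD44-negative α6+ cells, where 12.7% of 12730 genes were, and 0 lower, where 6.13% were. The 8, which are 20% of the list, were Cenpf (1.37), Nuf2 (1.29), Foxm1 (1.21), Bub1 (1.21), Kif11 (1.15), Cdk1 (1.10), Nusap1 (1.07) and Prc1 (1.03). Cdca8 (−0.24), Aurka (−0.21) and Mad2l1 (−0.12) were the lowest, and Mki67 was at 0.52 and Ccnb1 at 0.34. The median was 0.58 over the members and 0.01 over all genes. Among keratinocyte-led cells alone, 0 members were at least 2-fold higher, where 8.47% of all genes were, and 1 was lower, with a median of 0.11.

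CD44-negative α6+ cells had 32 of 40 genes at least 2-fold higher than α6-negative cells, where 8.51% of 13751 genes were, and 0 lower, where 23.4% were. The median was 1.76 against −0.25 over all genes. Cdc20 is among the 32 with a mean of 15.1 TPM in CD44-negative α6+ cells, and no fold is given for it against a gate listed at 0. The next were Ccna2 at 3.49 (17.5 and 0.65 TPM), Ccnb1 at 3.23 (25.4 and 1.82 TPM) and Cenpa at 3.13 (28.1 and 2.33 TPM), followed by Cdk1 at 2.82. Pttg1 (−0.29), Bub1 (−0.00) and Mad2l1 (0.20) were lowest, and the 2 α6-negative mitotic cells held median levels of Bub1 and Mad2l1 of 39.9 and 68.7 TPM, against 5.41 and 14.1 TPM in the 28 CD44-negative α6+ ones. All 7 cyclins and activators, 6 of 6 kinases and passengers and 6 of 6 cytokinesis genes passed, but 1 of 5 checkpoint genes. Cenpf, Spc25, Kif23, Kif20a, Kif4, Aurka and Cdc25c, also among the 32, averaged 0.014 to 0.18 TPM in α6-negative cells. Means this low lie under the filter's limit, so these genes were counted through their level in CD44-negative α6+ cells. The size of their folds depends on the pseudocount. With a pseudocount of 5, 19 of the 40 members were higher, where 3.09% of all genes were. With the 26 keratinocyte-led α6-negative cells alone, 38 members were at least 2-fold higher, where 12.6% of all genes were. Spike-ins took a median of 0.435% of TPM on the CD44-negative α6+ plate and 2.78% on the α6-negative plate, with medians of 6810 and 5521 detected genes, and the part of these in the result was not tested.

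Other cell cycle genes were described from lists that hold none of the 40. Of 35 other mitosis genes in the files, 10 were at least 2-fold lower after transfer than in CD44-negative α6+ cells, where 4.18% of all genes were. Their median was −0.87, and the lowest were the kinase Pbk (−1.64) and Ckap2l (−1.43). In reporter-positive over CD44-negative α6+ cells, 5 were lower (median −0.62), where 4.41% of all genes were. Against reporter-positive cells, 1 of the 35 was lower after transfer, Gtse1 at −1.10, where 7.82% of all genes were. Of 24 S phase genes, 7 were lower after transfer than in CD44-negative α6+ cells (median −0.87), where 4.18% of all genes were. The lowest were the uracil glycosylase Ung (−1.24) and the replication factor Gins1 (−1.18). Likewise 7 of the S phase genes were lower in reporter-positive than in CD44-negative α6+ cells (median −0.71), where 4.41% of all genes were. The lowest were the replicative helicase subunits Mcm6 (−1.54) and Mcm5 (−1.24). In CD44-negative α6+ over α6-negative cells, 24 of the 35 and 16 of the 24 were higher, where 8.51% of all genes were. In CD44+ reporter-negative over CD44-negative α6+ cells, 0 of the S phase genes were higher and 1 was lower (median −0.10). Of the 35 other mitosis genes, 1 was higher and 0 were lower (median 0.29). Of all genes, 12.7% were higher and 6.13% lower. Of the 40 members, 8 were higher (20%), where 12.7% of all genes were. With keratinocyte-led cells alone, 0 members were higher and 1 was lower, with a median of 0.11.

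A list of 15 genes of the anaphase-promoting complex, which works with Cdc20 and Ube2c, holds its core subunits and the activator Fzr1. Of these, 0 were at least 2-fold apart between cells after transfer and reporter-positive or CD44-negative α6+ cells. The same held between reporter-positive and CD44-negative α6+ cells. In these comparisons 2.95% to 9.17% of all genes were at least 2-fold apart in either direction taken alone. Of 13 G1 cyclins and kinases, 2 were at least 2-fold lower after transfer than in reporter-positive cells, where 7.82% of all genes were. In reporter-positive over CD44-negative α6+ cells 2 were higher, where 9.17% of all genes were, and 0 differed by that much after transfer over CD44-negative α6+ cells. The 2 in both cases were Ccnd2 and Ccnd1. Ccnd2 averaged 24.3 TPM after transfer and 115.8 TPM in reporter-positive cells (−2.21), and Ccnd1 31.4 and 93.2 TPM (−1.54). In reporter-positive over CD44-negative α6+ cells, Ccnd2 was at 2.02 and Ccnd1 at 1.497. Among 14 inhibitors of the cycle, 3 were at least 2-fold higher in the same comparison, where 9.17% of all genes were, and 0 were lower. The list median was 0.12. Cdkn2b and Cdkn2a, which encode p15 and p16/p19Arf, were at 2.49 and 2.38. Their means were 29.2 and 16.3 TPM in reporter-positive and 4.37 and 2.31 TPM in CD44-negative α6+ cells. Cdkn1a was at 1.87. Other inhibitors went the other way, the lowest being Cdkn2d (−0.81), Cdkn1b (−0.71) and Cdkn2c (−0.58). Cdkn1a (p21) had medians of 108.8 TPM after transfer, 213.2 in reporter-positive, 49.9 in CD44+ reporter-negative, 42.9 in CD44-negative α6+ and 80.6 TPM in α6-negative cells. In mitotic and other cells, its medians were 77.2 and 121.3 TPM after transfer, 96.8 and 262.2 TPM in reporter-positive cells, 54.5 and 27.3 TPM in CD44+ reporter-negative cells, and 22.7 and 68.6 TPM in CD44-negative α6+ cells. It was thus lower in mitotic cells of 3 of these gates and higher in those of the CD44+ reporter-negative gate.

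S phase genes and other mitosis genes differed in how they went with the count of members. Cells with fewer than 10 members had a median of 8 of 24 S phase genes and 4 of 35 other mitosis genes. At 10 to 19 members (42 cells) the medians were 13 and 9, at 20 to 29 members (21 cells) 18 and 18, and at 30 to 40 members (67 cells) 18 and 31. The median of the S phase genes was thus the same in the 2 highest classes, while that of the other mitosis genes was not. By gate, the S phase medians at 20 to 29 and at 30 to 40 members were 18 and 17 after transfer, 21 and 19 in reporter-positive cells, and 24 and 19 in CD44-negative α6+ cells, from 2 to 21 cells each. Median genes per library were 6550, 7570, 7312 and 7673 in these 4 classes. Detection of 9 basal keratinocyte markers had medians of 6, 8, 8 and 8, and of 10 suprabasal markers 7 in each class.

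Of 13308 other genes, those most like the list, by the Spearman correlation of log2(TPM + 1) with the number of members detected, averaged over 4 gates of at least 30 cells, were Rrm1 (0.65), Cks1b (0.65), 2810417H13Rik (0.63), Cdca3 (0.63), Tubb5 (0.61), Tacc3 (0.60), Ndc1 (0.60), Kif15 (0.60), Casc5 (0.59) and Tuba1b (0.59). Rrm1 is a subunit of ribonucleotide reductase, Cks1b a relative of Cks2, and Tubb5 and Tuba1b are tubulins. Unlike most members, Tubb5 was detected in 84.2% of cells after transfer, 99.05% of reporter-positive, 100% of CD44+ reporter-negative, 98.9% of CD44-negative α6+ and 86.05% of α6-negative cells, with means of 87.6, 169.5, 216.3, 170.8 and 97.6 TPM. Rrm1 averaged 8.53, 10.3, 17.2, 17.7 and 6.15 TPM, and Cdca3 7.53, 8.52, 16.9, 15.5 and 2.16 TPM, in the same order of gates. Cells of a gate share plates and gene number, so these correlations are descriptions only.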

How the data were processed

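Tumour cells of mouse skin were sorted 1 to a well, and libraries were made by Smart-seq2 and sequenced as paired ends, per the labels' protocols. The deposited values are TPM per gene and library in 2 tables, with 46517 gene rows and 92 ERCC spike-in rows. Bowtie2 2.2.9, RSEM 1.2.30 and the build mm10 are named in the submitters' processing notes. How multi-mapping reads were assigned is not given here. Depth is unknown, since TPM do not carry it, and detected genes per library (medians of 5521 to 7769 per plate used) stand in its place. Rows of ribosomal RNA took a median of 66.1% to 76.4% of TPM per plate, so the TPM of other genes are shares of what these left. One row, Yam1, was added to the ribosomal rows after the values had been seen.

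Libraries with at least 2000 genes were kept (696 of 908), and 431 of these on the plates named above were used. For each gate the share of cells with a gene detected, its exact 95% interval, and the lowest, median, highest and mean TPM were computed with Python 3.11.15, pandas 2.3.3, numpy 2.4.6 and scipy 1.17.1. Folds are log2((mean TPM + 1)/(mean TPM + 1)), which understates changes of weakly expressed genes. With 1 sample per gate no test was made. The fold and the search for repeat libraries were tested on simulated data. Repeats were pairs of libraries that chose each other as nearest in Pearson r of log2(TPM + 1), ahead of the next by 0.05, or that had an r of 0.88 or more. A cell was led by the marker list with the highest mean level. The members and lists were chosen with earlier results of these data known. Named in full are Mki67, Top2a, Ccnb1, Cdk1, Plk1, Cdc20, Aurkb, Birc5, Ube2c, Cenpf, Bub3 and Cks2, in each comparison the 3 members with the highest and the 3 with the lowest fold, of other genes the 10 most like the list, and from each other list the 2 with the largest fold. Alternatives changed the pseudocount, filters, detection limit, count limit, scaling, plates, cell type and treatment of matched libraries. Promoter sequences are from RefSeq.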

Additional observations from a re-analysis of the deposited data

Results flagged for a closer look

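The comparisons leave out 4 plates, whose libraries also held mitotic cells. They made up 14 of 69 kept libraries on OT1 (20.3%, interval 11.6% to 31.7%), 17 of 79 on OT_A (21.5%, 13.1% to 32.2%), 12 of 72 on OT_C (16.7%, 8.92% to 27.3%) and 14 of 45 on OT_D (31.1%, 18.2% to 46.6%). OT1 and OT_A repeat wells of OT_B and OT2, at 18.9% and 17.2%. Libraries of OT_C and OT_D, labelled after transfer, matched libraries labelled before transfer on CSC1, CSC2 and the CD44+ reporter-negative plate, where the shares were 16.4%, 25% and 40%. Which of the conflicting labels is correct cannot be told from the values.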

How the results depend on the processing

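No paired analysis was possible because the replicate numbers only name cells in accession order and no test was made. Of the shares of mitotic cells, 40 values under an alternative moved by less than the counting interval and 9 moved beyond it. At a limit of 10 members the share was 25.4% after transfer, 31.4% in reporter-positive and 43.96% in CD44-negative α6+ cells, and at 30 members 11.9% after transfer. With detection of Mki67 in place of the count it was 29.4% after transfer, 86.7% in CD44+ reporter-negative and 50.5% in CD44-negative α6+ cells. In α6-negative cells it was 0 in libraries of 6000 to 8000 genes and 0 among keratinocyte-led cells, and 2.38% with matched libraries merged. Counts of members at least 2-fold apart depended on the scale. Percentages in brackets after these counts are the share of all genes counted that were 2-fold apart in the same direction. With a pseudocount of 0.1, 1 member was lower after transfer over reporter-positive (12.9%) and 28 over CD44-negative α6+ cells (8.26%). In the same setting, 15 were lower in reporter-positive over CD44-negative α6+ cells (7.77%). There 13 were higher in CD44+ reporter-negative over CD44-negative α6+ cells (17.2%). A pseudocount of 5 gave 3 lower after transfer (0.95%) and 2 lower in reporter-positive cells (1.09%), both over CD44-negative α6+ cells. It gave 16 lower in reporter-positive over CD44+ reporter-negative cells (5.13%). It also gave 1 higher in CD44+ reporter-negative over CD44-negative α6+ (4.73%) and 19 higher in CD44-negative α6+ over α6-negative cells (3.09%). A larger pseudocount shrinks every fold by construction. With TPM rescaled without ribosomal and spike-in rows, 13 were lower in reporter-positive over CD44-negative α6+ cells (8.40%). In this scaling 16 were higher in CD44+ reporter-negative over CD44-negative α6+ cells (20.7%). In this scaling the median of all genes moved from −0.20 to −0.07 for after transfer over reporter-positive, from 0.05 to −0.08 for reporter-positive over CD44+ reporter-negative, and from −0.25 to −0.41 for CD44-negative α6+ over α6-negative cells. In libraries of 6000 to 8000 genes the same 2 counts were 13 (5.03%) and 18 (9.17%). Among keratinocyte-led cells, 12 were lower in reporter-positive over CD44+ reporter-negative cells (9.24%). For CD44+ reporter-negative over CD44-negative α6+ cells, 0 were higher (8.47%) and 1 was lower, with no share of all genes at hand for the latter. The members' median stayed above 0, at 0.11 against −0.07 over all genes. Without plate CSC1, 4 were lower after transfer over reporter-positive (9.83%) and 3 lower in reporter-positive over CD44-negative α6+ cells (6.70%). Without plate CSC2, 13 were lower in reporter-positive over CD44-negative α6+ cells (5.40%). All libraries as labelled gave 7 lower after transfer over CD44-negative α6+ cells (2.21%). Merging matched libraries gave 13 higher in CD44+ reporter-negative over CD44-negative α6+ cells (13.3%). Leaving out libraries with a match labelled after transfer gave 4 lower after transfer over the 8 remaining reporter-positive cells, where 11.2% of all genes were. It also gave 8 higher there, with no share of all genes at hand to set beside them. In reporter-positive over CD44-negative α6+ cells it gave 23 lower, where 28.5% of all genes were. The cause of these moves was not tested. Of the log2 values of single members, 2350 moved by less than 0.5, 330 by more, and 0 of those at least 2-fold apart reversed. The CD44+ reporter-negative gate could give no value without its matched libraries, since 0 would remain, and its plate could not be left out for the same reason. With 15 cells there and 2 mitotic cells in the α6-negative gate, the number of cells limits these shares.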
